A study of Homo sapiens with 4 samples.

Results

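Pol II S5p regions that held several 53BP1 peaks are described. They were chosen by position, as the rows of the deposited S5p list on chromosomes 1 to 22 that shared at least 1 bp with 2 or more separate rows of the deposited 53BP1 list. Of 61263 S5p regions, 1174 met this rule (1.92%), and 9307 held any 53BP1 peak (15.2%). The number was 586 with only 53BP1 peaks of −log10 q-value 5 or more, and 724 with peaks under 1000 bp apart joined. They are called multi-53BP1 regions here, and the 8133 S5p regions with exactly 1 peak are called single-53BP1 regions. The 1174 regions held 2970 of the 11370 53BP1 peaks (26.1%, 95% interval 25.3 to 26.9), and none of these peaks met a second S5p region. The regions were thus selected on the S5p and 53BP1 measurements, and their numbers of peaks, widths and fold enrichments are a description. S2p took no part in the choice.

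The chromatin came from MCF10A, a non-tumour human breast epithelial line, crosslinked with formaldehyde under normal growth. Chromatin immunoprecipitation with sequencing was made for 53BP1, for RNA polymerase II phosphorylated on serine 5 (S5p) and for the form phosphorylated on serine 2 (S2p), with 1 library each. An input library also belongs to the series and was not analysed here. There was 1 cell line, 1 condition and no replicate, so no difference between groups of regions could be set against a spread between libraries, and no test was available. Intervals are exact binomial 95% intervals over regions, or over 53BP1 peaks or neighbouring pairs of peaks where these are counted. They cover counting error only, and neighbouring regions are not independent. Peaks and pairs of the same region are not independent either, so intervals over them may be too narrow.

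53BP1 binds chromatin around DNA double-strand breaks, where it steers repair towards end joining, and it was named for its binding to p53. The C-terminal repeats of Pol II are phosphorylated on serine 5 as transcription starts, and S5p signal is usually strongest near promoters. Phosphorylation on serine 2 builds up during elongation, and S2p signal is usually strongest in gene bodies and towards gene ends. An S5p region that carries several 53BP1 peaks therefore allows the position of each peak to be read against both forms of the polymerase. The gene table at hand was of another genome build, so regions are given by position in hg19 and no gene is named.

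Most multi-53BP1 regions held few peaks. Exactly 2 were found in 806 regions (68.7%, 65.9 to 71.3), 3 in 240, 4 in 65 and 5 or more in 63, and the highest number was 10, in 2 regions. The regions were wide, with a median width of 10386.5 bp (9584 to 11089) and quartiles of 4820 and 17611 bp, against 2282 bp (2243 to 2329) in single-53BP1 regions and 968 bp in all S5p regions. Widths of 20 kb or more made up 20.6% of multi-53BP1 regions and 2.99% of single-53BP1 regions. Widths under 2 kb made up 3.66% of multi-53BP1 regions and 42.6% of single-53BP1 regions. A wide region has more room for a second peak, so this difference is partly fixed by the rule.

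Within multi-53BP1 regions, more peaks went with wider and stronger S5p. The median width was 7241.5 bp with 2 peaks, 14755.5 bp with 3, 16885 bp with 4 and 24225 bp with 5 or more. The median S5p fold, which is the authors' ratio over background, was 36.2, 44.3, 59.8 and 63.2 in the same order. The fold intervals of neighbouring classes overlapped between 3 peaks (41.5 to 48.7) and 4 (43.6 to 74.2), and between 4 and 5 or more (60.5 to 77.1). The width intervals overlapped between 3 peaks (13782 to 16392 bp) and 4 (14048 to 19921 bp). The number of peaks per kb of S5p region stayed between 0.175 and 0.214 over these classes, against 0.228 in single-53BP1 regions. Among S5p regions with any 53BP1, the share with 2 or more peaks was 1.23% (43 of 3510) under 2 kb, 7.99% at 2 to 5 kb, 22.5% at 5 to 10 kb, 40.5% at 10 to 20 kb and 49.9% (242 of 485) at 20 kb and over. Nearly 50% of the widest regions with 53BP1 thus carried several peaks, and as many carried only 1.

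**Figure D1:**
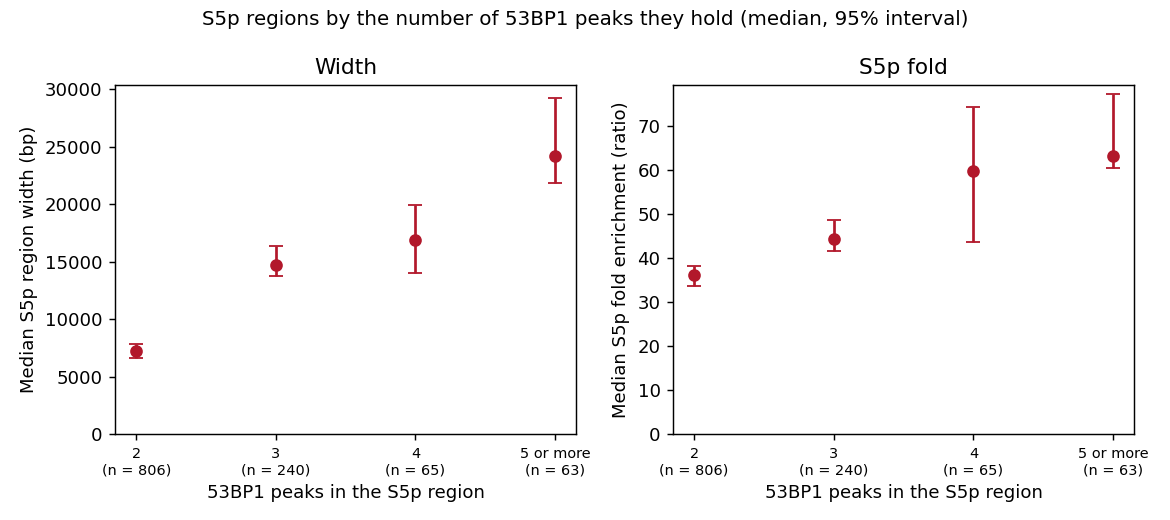
Median width in bp (left) and median S5p fold enrichment (right) of S5p regions with 2, 3, 4 and 5 or more 53BP1 peaks, with bars for exact binomial 95% intervals of the median. Width climbs from 7241.5 bp with 2 peaks to 24225 bp with 5 or more, and fold from 36.2 to 63.2.

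The S5p fold of multi-53BP1 regions had a median of 40.2 (38.7 to 42.2), against 28.1 (27.7 to 28.7) in single-53BP1 regions and 3.76 in all S5p regions. This order did not hold in narrow regions. Under 2 kb the medians were 16.8 in multi-53BP1 and 21.0 in single-53BP1 regions, and at 2 to 5 kb they were 27.9 and 32.1. At 5 to 10 kb they were 39.9 and 37.2, and at 10 to 20 kb 45.8 and 40.5. At 20 kb and over they were 58.0 and 44.9. The median place of multi-53BP1 regions in the S5p list was the 95.3rd percentile, and 18 of the 1174 lay at or below the 80th percentile. Just inside the rule, the 3 regions of highest S5p fold with exactly 2 peaks had S5p folds of 252, 219 and 214 and their strongest 53BP1 peaks had folds of 29.1, 25.7 and 15.9. Just outside it, the 3 of highest S5p fold with exactly 1 peak had S5p folds of 300.1, 265 and 263 and 53BP1 folds of 32.7, 60.1 and 82.6. These 3 were on chromosomes 13, 17 and 12 and were 8549, 2066 and 2870 bp wide.

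A few regions show how the peaks were laid out. On chromosome 12 at 52623815 to 52655548, a region of 31734 bp with an S5p fold of 158 held 10 peaks. A 53BP1 peak of 2145 bp with a fold of 16.9 had its summit 10 bp from the S5p summit. A second broad peak of 7664 bp with a fold of 16.3 lay 23381 bp away, near the other end. The other 8 peaks were 216 to 554 bp wide and had folds of 2.64 to 6.51. The S2p summit was 21717 bp from the S5p summit and 1664 bp from the summit of the second broad peak.

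The chromosome 17 region at 38612711 to 38658925 had a similar layout. It was 46215 bp wide with an S5p fold of 154 and also held 10 peaks. A peak of fold 21.3 lay 41 bp from the S5p summit, and a broad peak of 5701 bp with a fold of 20.8 lay 30172 bp away. The other 8 had folds of 3.08 to 4.53, and 7 of them were beyond the broad peak, 34845 to 42051 bp from the S5p summit. The S2p summit was 29124 bp from the S5p summit and 1048 bp from that of the broad peak. Both regions thus carried strong 53BP1 near each of the 2 Pol II summits, with narrower and weaker peaks around or between them.

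On chromosome 1 at 153512898 to 153542150, an S5p region of fold 158 held 8 peaks. Here the peak of fold 11.8 was 78 bp from the S5p summit and a peak of fold 11.1 was 5088 bp from it, 157 bp from the S2p summit. The remaining 6 peaks had folds of 2.64 to 4.11. On chromosome 7 at 26216686 to 26255332, the peak at the S5p summit stood alone in strength. It had a fold of 29.3 at a distance of 4 bp, while the other 6 peaks had folds of 3.03 to 5.69 and lay 12991 to 21919 bp away, on the side where the S2p summit was found.

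In other regions with many peaks the strongest was far from the S5p summit. On chromosome 8 at 144649600 to 144701195, the 9 peaks had folds of 3.78 to 7.93, and the strongest lay 39070 bp from the S5p summit. The peak nearest to that summit, 95 bp away, had a fold of 5.65. On chromosome 5 at 176851899 to 176878205, the strongest of 8 peaks (fold 7.99) was 21097 bp from the S5p summit and 818 bp from the S2p summit, while a peak of 4964 bp with a fold of 7.48 lay 684 bp from the S5p summit. In the 10 regions with the most peaks, the strongest peak was the nearest to the S5p summit in 7, and 84 of 85 53BP1 summits lay inside S2p regions.

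**Figure D2:**
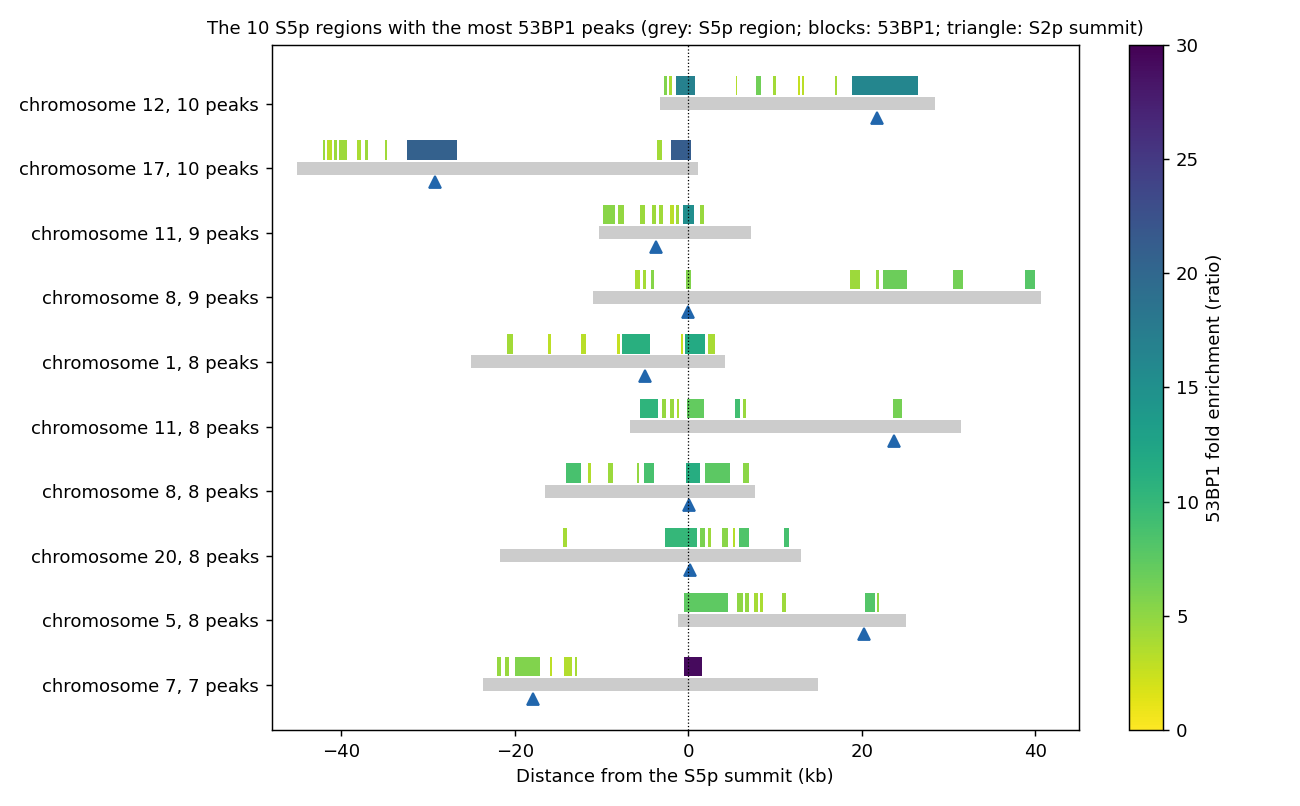
The 10 S5p regions with the most 53BP1 peaks, in order of peak number and S5p fold, drawn in kb from the S5p summit (dotted line). Grey bars are the S5p regions, coloured blocks the 53BP1 peaks with colour for their fold, and triangles the summit of the strongest S2p region. In the upper 2 regions, on chromosomes 12 and 17, a block of high fold stands at the S5p summit and another near the S2p summit.

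Among the 10 multi-53BP1 regions of highest S5p fold, the strongest 53BP1 peak was the nearest to the S5p summit in 9. None of these 10 was among the 10 with the most peaks. The highest S5p fold, 252, belonged to chromosome 12 at 46749577 to 46767176, which held 2 peaks. Its peak of fold 29.1 was 18 bp from the S5p summit and its peak of fold 5.64 was 15449 bp from it, near the other end, 378 bp from the S2p summit. The next, on chromosome 17 at 74707155 to 74734724 (S5p fold 235), held 3 peaks with folds of 29.0, 5.19 and 4.69. The exception was chromosome 6 at 30707324 to 30713094 (S5p fold 219). Its peaks had folds of 25.7 and 23.9, so they were nearly equal, and the weaker was 46 bp from the S5p summit while the stronger was 1955 bp from it and 269 bp from the S2p summit.

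The other 7 of these 10 had S5p folds of 198 to 214. They lay on chromosome 4 at 119198366 to 119205643, chromosome 5 at 172191234 to 172200924, chromosome 7 at 44834313 to 44846349, chromosome 17 at 48940226 to 48945605, chromosome 9 at 131935900 to 131940999, chromosome 15 at 39871605 to 39893452 and chromosome 2 at 85764356 to 85781701. Their strongest 53BP1 peaks had folds of 15.9 to 30.3 and lay 3 to 54 bp from the S5p summit. Their second peaks had folds of 3.08 to 8.29. In 9 of the 10 regions of highest S5p fold, the 53BP1 peak nearest to the S2p summit was not the one nearest to the S5p summit, and in the 10 regions with the most peaks this held for 7.

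Neighbouring 53BP1 summits within a region were typically a few kb apart. Over the 1796 neighbouring pairs, the median spacing was 2151.5 bp (1980 to 2355), with quartiles of 1074 and 5416.5 bp and a range of 326 to 51675 bp. This value depended on what counted as a separate peak: it was 4036 bp with only 53BP1 peaks of −log10 q-value 5 or more, and 5408.5 bp with peaks under 1000 bp apart joined. Measured edge to edge, the median was 1207.5 bp. Spacings under 1 kb made up 21.5% of pairs (19.7 to 23.5) and spacings of 5 kb or more were 293 pairs at 5 to 10 kb, 142 at 10 to 20 kb and 57 beyond. On a log scale the counts were highest at 1000 to 1259 bp (177 pairs), lower at 3162 to 3981 bp (98 pairs) and higher again at 3981 to 5012 bp (118 pairs). The last difference was not tested against counting error. The edges of neighbouring peaks were at least 214 bp apart, in these regions and in the whole 53BP1 list.

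**Figure D3:**
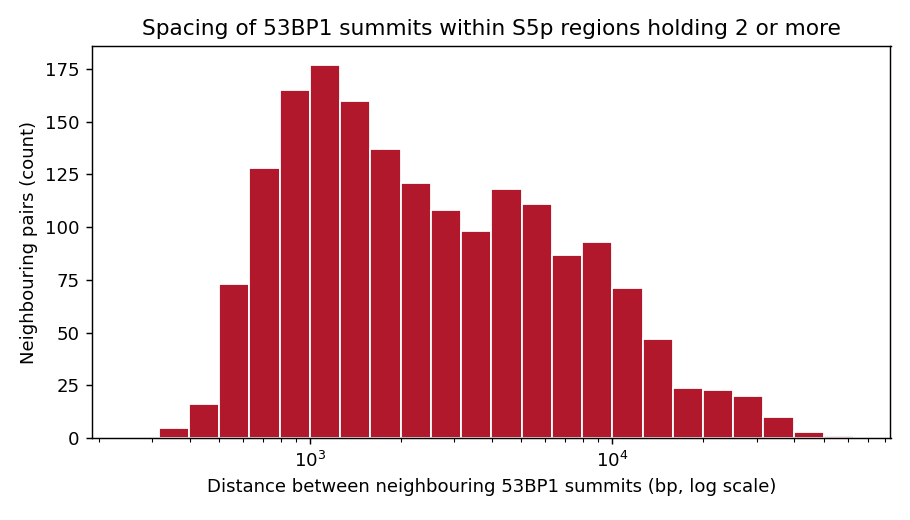
Number of neighbouring 53BP1 peak pairs (vertical axis) by the distance between their summits in bp (horizontal axis, log scale), for all 1796 pairs in the 1174 regions. The tallest bar, 177 pairs, is at 1000 to 1259 bp. The bar at 3981 to 5012 bp holds 118 pairs, against 98 in the bar before it, and this difference was not tested.

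Spacing followed the width of the S5p region, from a median of 723 bp (593 to 810) under 2 kb to 1042.5 bp at 2 to 5 kb, 1866.5 bp at 5 to 10 kb, 3256 bp at 10 to 20 kb and 3677 bp (3124 to 4228) at 20 kb and over. Medians at 10 to 20 kb (2784 to 3879) and above did not separate. The width of a region limits the spacing within it, so this trend is partly fixed by the rule. Under 2 kb the largest spacing was 1410 bp. The outermost summits of a region were a median of 3529 bp apart, which was 45.2% (42.1 to 48.2) of the region's width. Of all neighbouring 53BP1 peaks in the list whose edges were under 1 kb apart, 830 of 860 (96.5%, 95.1 to 97.6) shared an S5p region, and of those under 5 kb apart, 1390 of 1688 (82.3%, 80.4 to 84.1) did. Over the whole list, at any distance, 1796 of 11348 neighbouring pairs did. Most 53BP1 peaks met an S5p region, and sharing one is the rule itself, so high shares for close pairs are largely given.

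The longest arrays crossed most of a wide S5p region. On chromosome 1 at 154176426 to 154246868, 3 peaks lay up to 63624 bp apart. The peak of fold 10.495 was 6 bp from the S5p summit, and a peak of fold 4.71 was 51669 bp from it and 273 bp from the S2p summit. On chromosome 19 at 11199543 to 11257596, a peak of fold 14.4 was 6 bp from the S5p summit at one end, and peaks of folds 5.04 and 5.42 were 47307 and 53795 bp from it. The S2p summit of that region was 895 bp from the nearer of these far peaks. The other 3 of the 5 longest, on chromosome 12 at 53397976 to 53463251, chromosome 17 at 79629477 to 79685098 and chromosome 16 at 87857044 to 87903751, spanned 47895, 45476 and 45467 bp.

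The closest neighbouring summits were 326 bp apart, in the chromosome 12 region with 10 peaks. The next 4 were on chromosome 8 at 142010078 to 142012379 (345 bp), chromosome 10 at 105877275 to 105883893 (363 bp), chromosome 14 at 23344351 to 23352593 (383 bp) and chromosome 1 at 6241017 to 6260145 (386 bp). Chromatin was sonicated to fragments of 250 to 500 bp, per the labels, so these spacings were of the size of a fragment.

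Within a region the 53BP1 peaks were unequal in strength. The strongest peak was 734 bp wide in the median, with a fold of 8.17 (7.83 to 8.41). The second was 487 bp wide, with a fold of 4.78 (4.68 to 4.90), and the third, where present, had a fold of 4.15. The only peak of single-53BP1 regions was 573 bp wide, with a median fold of 6.30 (6.27 to 6.38). The strongest of several peaks is high by the way it is picked, so its lead over the only peak of single-53BP1 regions is partly given. The lead was absent in narrow regions. Under 2 kb the median folds were 4.87 for strongest and 5.66 for only peaks, and at 2 to 5 kb 6.38 and 6.68. At 5 to 10 kb they were 8.29 and 6.92, at 10 to 20 kb 9.45 and 7.55, and above that 9.45 and 8.31. In the whole 53BP1 list, 73.9% of strongest peaks, 26.5% of second peaks and 54.4% of only peaks lay in the upper 50% by fold.

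The ratio of the strongest to the second fold in a region had a median of 1.51 (1.47 to 1.55) and quartiles of 1.18 and 2.2. It was under 1.2 in 315 regions (26.8%) and 2 or more in 352 (29.98%, 27.4 to 32.7), with a maximum of 8.67. In 109 regions (9.28%, 7.69 to 11.1) at least 2 peaks belonged to the upper 25% of the 53BP1 list. The outermost of these strong peaks were a median of 6960 bp apart (6009 to 9238).

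The 5 regions with the highest second fold, chosen after their values were seen, include the chromosome 6 and chromosome 17 regions with 2 strong peaks described above. On chromosome 1 at 28830962 to 28855528, a peak of fold 34.0 lay 25 bp from the S5p summit, and a peak of fold 25.9 and 6945 bp in width lay 9705 bp from it. The S2p summit was 5314 bp from the S5p summit and lay inside this broad peak, which ran from 28836886 to 28843830. Measured between summits, however, neither strong peak was the nearest to the S2p summit. The nearest 53BP1 summit, 3606 bp from the S2p summit, was that of the weakest peak of the region, with a fold of 3.67. On chromosome 3 at 49047908 to 49067556, peaks of folds 23.4 and 22.3 lay 1 and 7899 bp from the S5p summit, and the second was 52 bp from the S2p summit. On chromosome 17 at 57913364 to 57925121, the order was turned round. The peak at the S5p summit (27 bp) had a fold of 21.2, and a peak of 4790 bp and fold 46.7, 5786 bp from the S5p summit, was 69 bp from the S2p summit.

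The strongest peak was usually the one at the S5p summit. It was nearest to the S5p summit in 886 of 1174 regions (75.5%, 72.9 to 77.9), where equal peaks would give 43.5% by arithmetic. The share was 77.4% with 2 peaks (50% if equal), 68.3% with 3 (33.3%), 81.5% with 4 (25%) and 71.4% with 5 or more (17.4%). The strongest summit lay a median of 67 bp (57 to 80) from the S5p summit, and the other summits a median of 3251 bp (2855 to 3598). Only peaks of single-53BP1 regions lay a median of 56 bp (54 to 59) from it. Folds and summits of both lists come from the libraries that chose the regions, so these shares are a description.

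Some 53BP1 peak spanned the S5p summit in 92.7% of multi-53BP1 regions (91.0 to 94.1) and in 90.9% of single-53BP1 regions (90.3 to 91.5). Several peaks give more chances than 1. The strongest peak alone spanned the S5p summit in 72.4% (69.7 to 74.9) of multi-53BP1 regions. Under 2 kb the shares with any peak were 81.4% (66.6 to 91.6) and 90.9%, and at 20 kb and over they were 95.04% (91.5 to 97.4) and 87.7% (82.8 to 91.5). In the 288 regions where another peak was nearer to the S5p summit than the strongest, the strongest was a median of 2098.5 bp away. Its fold exceeded that of the nearest peak by a median factor of 1.21 (1.16 to 1.29), with an upper quartile of 1.48. Where the strongest peak was not the one at the S5p summit, the peaks were thus mostly close in strength.

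**Figure D4:**
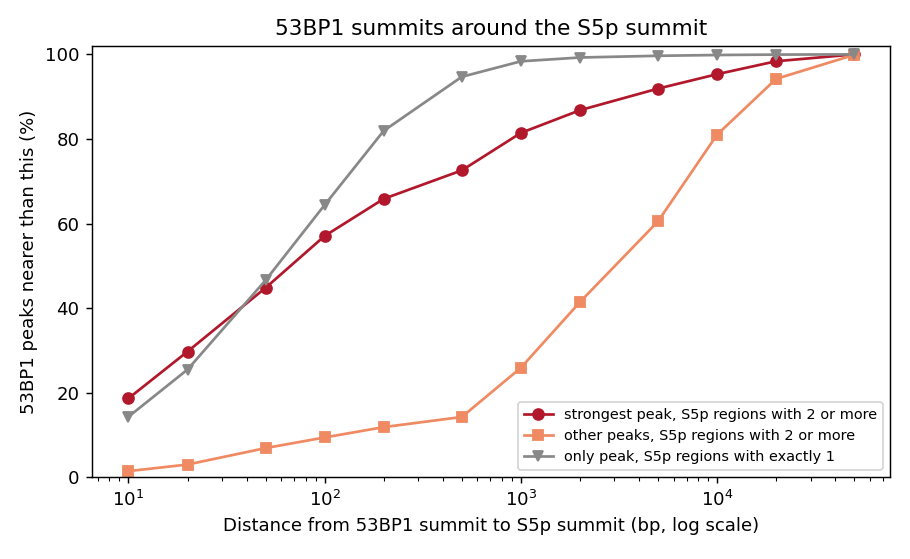
Share of 53BP1 peaks (percent, vertical axis) whose summit lay nearer to the S5p summit than the distance on the horizontal axis (bp, log scale), for the strongest peak and the other peaks of multi-53BP1 regions and for the only peak of single-53BP1 regions. Within 500 bp lie 72.6% of strongest peaks, 14.3% of other peaks and 94.7% of only peaks.

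Over all multi-53BP1 regions, most of which held 2 peaks, the peaks away from the S5p summit were mostly on 1 side of it. Peaks over 500 bp from the S5p summit lay on 1 side in 1018 regions (86.7%, 84.6 to 88.6) and on both sides in 138 (11.8%). With 2 peaks, of which 1 is usually at the S5p summit, this is largely given. In the 368 regions with 3 or more peaks, the strongest was the outermost peak in 249 (67.7%, 62.6 to 72.4), where equal peaks would give 58.3%. In regions of 10 kb and over, the S5p summit lay in the outer 10% at either end in 246 of 604 multi-53BP1 regions (40.7%, 36.8 to 44.8) and in 483 of 775 single-53BP1 regions (62.3%, 58.8 to 65.7).

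The strength of the other peaks changed little with distance from the strongest one. Their median fold was 4.15 (4.10 to 4.34) within 1 kb of the strongest summit, 4.42 at 2 to 5 kb, 4.65 at 5 to 10 kb and 4.73 (4.53 to 5.04) at 20 kb and over. Relative to the strongest peak of the same region, their fold was 0.744 within 1 kb, 0.494 at 2 to 5 kb and 0.505 at 20 kb and over. The strongest peaks themselves had a median fold of 6.22 in regions with another peak within 1 kb and 9.80 in those with one at 2 to 5 kb. Of these other peaks, 53.4% (51.1 to 55.7) were in the lower 25% of the 53BP1 list by fold.

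Regions with exactly 2 peaks differed with the spacing of the peaks. The 221 with summits under 1 kb apart had a median S5p width of 3294 bp and S5p fold of 26.2, and peaks of median folds 5.86 and 4.15. The 209 with summits 5 kb or more apart had a median S5p width of 15451 bp and fold of 50.3, and peaks of folds 9.77 and 4.91. Summits 5 kb or more apart need a wide S5p region, so the difference in width is partly fixed. Even among the close pairs, 1 of the peaks spanned the S5p summit in 91.4% (86.9 to 94.7). The S5p summit fell in the middle 50% of the stretch between the 2 summits in 9 of these 221 regions (4.07%, 1.88 to 7.59). It lay anywhere between the 2 summits in 113 of the 221 (51.1%). The share in the middle 50% was also low in wider pairs, at 7.56% for 1 to 2 kb, 5.3% for 2 to 5 kb and 0% for 5 kb or more. Pairs of any spacing thus rarely flanked the S5p summit at equal distances. With 1 of the peaks usually spanning that summit, this is largely given.

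S2p, which took no part in the choice, was met by 1141 of 1174 multi-53BP1 regions (97.2%, 96.1 to 98.1), by 78.8% (77.9 to 79.7) of single-53BP1 regions and by 60.4% of all S5p regions. These shares moved with width. Under 2 kb the shares were 53.5% (37.7 to 68.8) of 43 multi-53BP1 regions and 57.3% (55.7 to 59.0) of single-53BP1 regions. At 2 to 5 kb they were 94.9% (91.5 to 97.3) and 92.3% (91.3 to 93.2), and at 5 to 10 kb they were 270 of 270 and 98.6% (97.6 to 99.3). At 20 kb and over every region of either kind met S2p (242 and 243 regions). Within a width class the presence of S2p therefore differed little.

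The amount of S2p differed in some width classes. S2p regions covered a median of 92.4% (91.4 to 93.4) of the bases of multi-53BP1 regions and 52.4% (51.1 to 53.8) of single-53BP1 regions. At 2 to 5 kb the medians were 64.8% (59.4 to 69.8) and 57.1% (55.4 to 58.4). At 5 to 10 kb they were 91.4% (89.6 to 92.6) and 81.2% (78.8 to 84.1), and at 10 to 20 kb they were 96.3% (95.1 to 97.04) and 91.0% (89.5 to 92.6). The intervals overlapped under 2 kb (33.7%, 0 to 59.7, in multi-53BP1 regions and 32.2%, 31.0 to 34.2, in single-53BP1 regions) and at 20 kb and over (97.2%, 96.6 to 97.9, and 96.0%, 94.8 to 97.2). S5p regions of 5 to 10 kb that held no 53BP1 were covered by S2p over a median of 100% of their bases. The median S5p fold at 5 to 10 kb was 39.9 in multi-53BP1 regions and 6.12 in those without 53BP1. The strongest S2p region met by a multi-53BP1 region was at a median percentile of 97.6 of the S2p list by fold (97.1 to 97.9), against 80.7 (80.2 to 81.3) for single-53BP1 regions. At 5 to 10 kb these percentiles were 96.6 (95.6 to 97.4) and 89.6 (89.0 to 90.4). At 2 to 5 kb they were 79.4 (75.6 to 82.1) and 79.3 (78.4 to 80.1) and did not separate. Under 2 kb, in 23 multi-53BP1 and 1988 single-53BP1 regions, the median was lower in multi-53BP1 regions, at 51.9 (42.3 to 74.8) and 68.3 (66.9 to 69.4), with overlapping intervals.

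The 33 multi-53BP1 regions without S2p were narrow and weaker in S5p. Their median width was 1766 bp and their median S5p fold 11.8, against 10737 bp and 41.0 for the 1141 with S2p. All but 1 of them held exactly 2 peaks, and their outermost summits were a median of 873 bp apart. The 3 of highest S5p fold, picked after their values were seen, were on chromosome 17 at 27181488 to 27182716 (S5p fold 25.5), chromosome 8 at 141467017 to 141468782 (21.5) and chromosome 7 at 29724130 to 29725589 (20.2). Their 53BP1 peaks had folds of 3.37 to 7.18.

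Single peaks were also followed into S2p. Of the 2970 53BP1 summits in multi-53BP1 regions, 2716 lay inside an S2p region (91.4%, 90.4 to 92.4), against 75.8% of all 53BP1 summits, these included. The share was 91.1% (89.4 to 92.7) for strongest peaks, 91.6% (90.3 to 92.9) for the others and 72.1% for only peaks of single-53BP1 regions. These shares moved with width. Under 2 kb they were 41.9% (27.0 to 57.9) for strongest and for other peaks and 53.1% (51.5 to 54.8) for only peaks. At 2 to 5 kb the strongest peaks were inside S2p in 84.0% (79.0 to 88.3), the others in 75.6% (70.0 to 80.6) and only peaks of single-53BP1 regions in 83.4% (82.0 to 84.7). In the same order they were 93.0%, 93.7% and 90.2% at 5 to 10 kb. They were 97.0%, 96.0% and 92.5% at 10 to 20 kb, and 96.7%, 97.4% and 92.2% at 20 kb and over. In 969 regions (82.5%, 80.2 to 84.7) every 53BP1 summit was inside S2p, and in 767 (65.3%, 62.5 to 68.1) all were inside 1 and the same S2p region. The strongest summit was outside S2p while at least 1 other was inside in 59 regions, and the strongest was inside while at least 1 other was outside in 101.

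The 2 Pol II summits often had different 53BP1 peaks beside them. The summit of the strongest S2p region lay inside the S5p region in 1086 of the 1141. In 458 of these (42.2%, 39.2 to 45.2) the same 53BP1 peak was nearest to both Pol II summits, and in the other 628 different peaks were. Where they differed, the Pol II summits were a median of 5780.5 bp apart (5282 to 6175). The peak nearest to the S2p summit then had a median fold of 4.76 (4.60 to 4.92) and the peak nearest to the S5p summit a median fold of 9.06 (8.68 to 9.70). The peak nearest to the S5p summit was the stronger of the pair in 530 of 628 regions (84.4%, 81.3 to 87.1). Wherever the strongest peak of a region is at the S5p summit, it must be the stronger of such a pair. These folds and this share therefore largely restate the place of the strongest peak given above. Of the peaks nearest to the S2p summit, 384 of 628 (61.1%, 57.2 to 65.0) had their summit within 500 bp of it.

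The share in which 1 peak was nearest to both summits was 72.4% (66.2 to 78.1) at 2 to 5 kb, 38.1% (32.2 to 44.4) at 5 to 10 kb, 31.3% (26.4 to 36.5) at 10 to 20 kb and 29.3% (23.5 to 35.6) at 20 kb and over. The S2p summit lay within 500 bp of the strongest 53BP1 summit in 28.7% (26.1 to 31.5) of these 1086 regions. The S5p summit lay within 500 bp of it in 72.6% (69.9 to 75.1) of all 1174. The strongest peak was the nearest to the S2p summit in 38.5% (35.6 to 41.5), where equal peaks would give 43.1%. In the 273 regions with 3 or more peaks and different peaks at the summits, the peak nearest to the S2p summit was the strongest of those left after the one at the S5p summit in 49.5% (43.4 to 55.5), where equal peaks would give 41.1%.

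The shares near the S2p summit that follow cover only regions with that summit inside the S5p region, 1086 multi-53BP1 and 5950 single-53BP1. Some 53BP1 summit was within 500 bp of the S2p summit in 66.1% (63.2 to 68.9) of these multi-53BP1 regions. In these single-53BP1 regions the share was 74.5% (73.3 to 75.6), but the order turned once width was held. At 5 to 10 kb the shares were 68.5% (62.4 to 74.1) and 52.7% (49.2 to 56.2). At 10 to 20 kb they were 62.3% (57.0 to 67.5) and 29.8% (25.8 to 34.1), and at 20 kb and over 45.3% (38.7 to 51.9) and 16.3% (11.6 to 21.9). Several peaks give more chances of a near summit than 1. With the strongest peak alone, the order was the opposite: it was within 500 bp of the S2p summit in 24.9% (19.7 to 30.7) of multi-53BP1 regions at 5 to 10 kb, 21.2% (17.0 to 25.9) at 10 to 20 kb and 11.6% (7.81 to 16.5) at 20 kb and over, each below the share for only peaks, with overlapping intervals in the last 2 classes. Over all regions that met S2p, wherever its summit lay, the distance between the S5p and S2p summits was similar at 10 to 20 kb. Its medians were 5788.5 bp (5177 to 6213) in multi-53BP1 regions and 5660.0 bp (4368 to 6292) in single-53BP1 regions. This distance was longer in multi-53BP1 regions at 5 to 10 kb (2828 bp, against 657 bp in single-53BP1 regions) and shorter at 20 kb and over (12266.5 bp, against 18567 bp). S2p fold was higher in multi-53BP1 regions, at a median percentile of 98.9 against 95.3 in single-53BP1 regions at 10 to 20 kb, and 98.98 against 97.7 at 20 kb and over. Its part in the result was not tested.

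**Figure D5:**
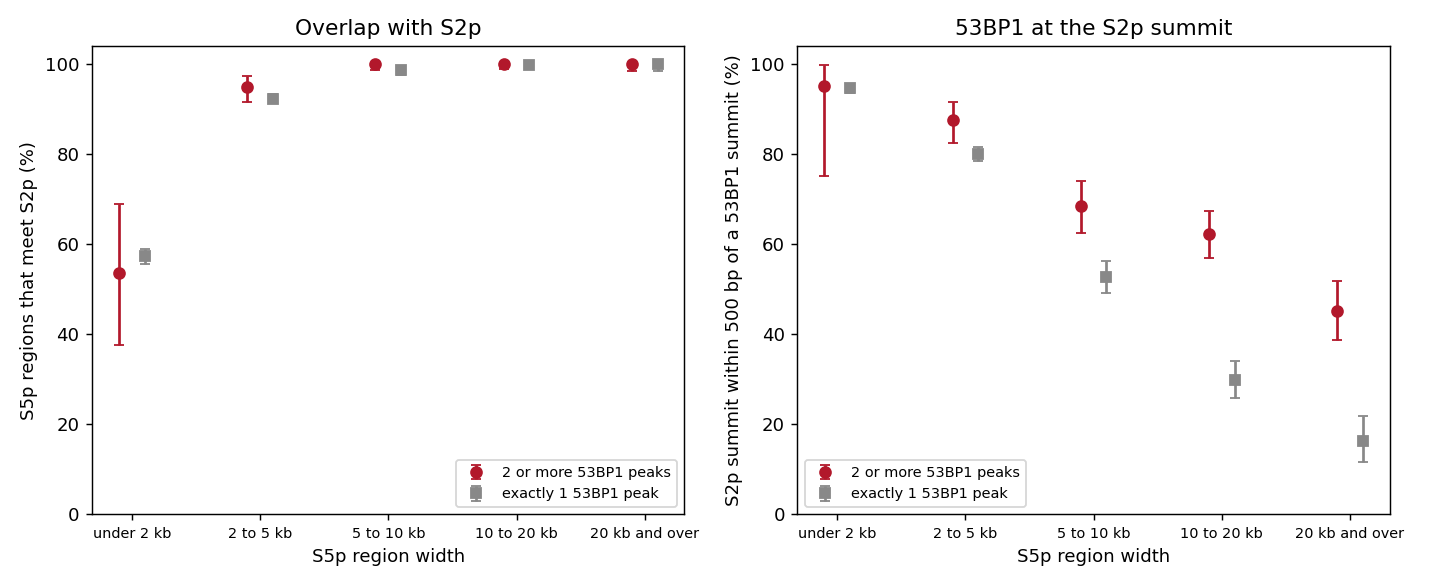
Share of S5p regions that met S2p (left, percent) and, where the S2p summit lay inside the S5p region, share with a 53BP1 summit within 500 bp of it (right, percent), by S5p width, for regions with 2 or more peaks and with exactly 1; bars are exact binomial 95% intervals. The left shares lie close together in every width class, while on the right they are 62.3% and 29.8% at 10 to 20 kb.

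Multi-53BP1 regions were found on every chromosome from 1 to 22. They were 12.6% (11.9 to 13.3) of the 9307 S5p regions with any 53BP1. By chromosome this share ranged from 6.12% on chromosome 18 (9 of 147, 2.84 to 11.3) and 6.96% on chromosome 15 (22 of 316, 4.41 to 10.4) to 17.0% on chromosome 17 (99 of 583, 14.0 to 20.3) and 17.4% on chromosome 19 (106 of 608, 14.5 to 20.7). The S5p regions with 53BP1 had median widths of 2461, 2165.5, 2940 and 3202 bp on these 4 chromosomes. On chromosome 20 the median width was 3400.5 bp and the share 12.7%. The part of width in these shares was not tested. Chromosome 1 held the most, 151 regions or 12.9% of all.

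The regions fell in 647 windows of 1 Mb, of which 406 held exactly 1 and 124 held 3 or more. These 124 windows contained 534 of the 1174 regions. The fullest were chromosome 17 from 7000001 to 8000000 and chromosome 11 from 65000001 to 66000000, each with 11, out of 23 and 22 S5p regions with 53BP1. Chromosome 19 from 1000001 to 2000000 held 10 of 25, and 4 windows held 9, on chromosome 1 from 153000001 and from 155000001, chromosome 8 from 145000001 and chromosome 6 from 31000001. In the chromosome 1 window from 153000001, 9 of 19 S5p regions with 53BP1 were multi-53BP1 regions and held 30 peaks between them. These windows were picked after their counts were seen.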

How the data were processed

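ChIP-seq of MCF10A cells gave 3 lists of enriched regions, 1 per ChIP, in narrowPeak format. The build is hg19 and bcl2fastq 2.20.0.422 was used, per the submitters' processing notes. Not given in the sources used here are the aligner, the peak caller, its control and any pooling. Each row carries, as deposited, a fold enrichment (the authors' ratio over background), a −log10 p-value, a −log10 q-value (lowest 1.32 for 53BP1), a score equal to 10 times the −log10 q-value within 1, and a summit offset. Read depth is unknown, and a deeper library can give more and wider regions.

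Rows on chromosomes 1 to 22 were kept (11370 of 11605 for 53BP1, 61263 of 62532 for S5p, 53422 of 54601 for S2p), with positions made 1-based. Regions were joined by overlap of at least 1 bp, widths were classed at 2, 5, 10 and 20 kb, and the S2p region of highest fold gave the S2p summit. Folds were used within 1 list. Shares have Clopper-Pearson and medians order-statistic 95% intervals. Named regions are the 10 with the most peaks, the 10 of highest S5p fold, the 5 of longest and of closest spacing, and 3 on each side of the rule's threshold. The sets without S2p and with the highest second fold, and the results at the S2p summit, were chosen after seeing the data. The regions, measures and alternatives were chosen with earlier results of these data known. Functions were tested on simulated data. The tools were Python 3.11.15, with pandas 2.3.3, scipy 1.17.1, numpy 2.4.6 and, for figures, matplotlib 3.10.9. Genes, promoters and sequences were not analysed here, since no hg19 annotation or genome was at hand.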

Additional observations from a re-analysis of the deposited data

Results flagged for a closer look

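Chromosome X was outside the rule and entered no comparison. There, 20 of 1267 S5p regions held 2 or more 53BP1 peaks (1.58%, 0.967 to 2.43), an interval that holds the 1.92% of chromosomes 1 to 22. They are given because they were left out of the comparisons above. They were 10% (6.22 to 15.0) of the 200 S5p regions with 53BP1 on that chromosome, and the highest number of peaks was 3. S2p was met by 19 of the 20, and the strongest peak was the nearest to the S5p summit in 19 of the 20 (95%, 75.1 to 99.9).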

How the results depend on the processing

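Of 51 values from alternatives, 29 stayed within 1.5 times the count or within the interval of the reported value, and 22 moved. Requiring the 53BP1 summit inside S5p, an S5p −log10 q-value of 5 or more, or adding chromosome X moved none of the values recomputed. With only 53BP1 peaks of −log10 q-value 5 or more, 586 regions met the rule (7.93% of those with 53BP1), with a median spacing of 4036 bp, 99.3% meeting S2p, the strongest peak nearest to the S5p summit in 72.0%, a fold ratio of 1.40 and 94.4% of summits inside S2p. With peaks under 1000 bp apart joined, these values were 724, 7.78%, 5408.5 bp, 99.7%, 79.3%, 1.66 and 95.6%. After such joining, where the S2p summit lay inside the S5p region, 1 peak was nearest to both Pol II summits in 31.5%. Fewer or merged peaks lower the count and widen the spacing by construction. The spacing edge to edge was 1207.5 bp, and the ratio of −log10 p-values was 1.88. S2p covered 50% or more of 86.2% of regions. With S2p −log10 q-values of 5 or more, 95.2% met S2p and 89.8% of summits were inside it. The next shares cover regions of 10 to 20 kb with the S2p summit inside the S5p region. A 53BP1 summit was within 250 bp of the S2p summit in 40% of multi-53BP1 and 24.7% of single-53BP1 regions. Within 1000 bp the shares were 76.5% and 35.2%. The alternatives for these last summit results were chosen after seeing the data. No paired analysis was possible because the labels give no replicate numbers, with 1 library for each antibody. Since the depth is unknown, a missing second peak means only that none passed the authors' threshold.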
